A study of Homo sapiens with 4 samples.

Results

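The retinoblastoma pocket proteins and the E2F factors were followed through 10 genes, found in the expression tables by their symbols: the pocket protein genes RB1, RBL1 and RBL2, the E2F genes E2F1, E2F2, E2F3, E2F4, E2F5 and E2F7, and TFDP1, which encodes the DP partner of E2F proteins. All 10 were present among the 23605 gene symbols of each table. Messenger RNA of LCC9 cells was sequenced, an established breast cancer line that the labels call tamoxifen resistant and positive for wild-type estrogen receptor alpha. All cells were kept without phenol red in medium with 5% charcoal-stripped serum and received vehicle (DMSO, 2 libraries) or A7, a compound described as a BRCA1 mimetic (2 libraries), for 24 h. The dose of A7 is not given in the sources used here, and 2 libraries per group of a single cell line are the whole basis of the comparison. The series title is about the kinase IKKB and NF-kB activity and names no pocket protein or E2F. The members were chosen with earlier results of these libraries known, among them the higher RBL2 with A7. Their difference between A7 and vehicle is therefore given as a description, with no test.

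Pocket proteins hold E2F transcription factors in check. In resting and early G1 cells they sit on E2F-bound promoters and recruit corepressors, and when cyclin-dependent kinases phosphorylate them they let go, so that genes for DNA replication are transcribed. RB1 binds mainly the activating factors E2F1, E2F2 and E2F3, whereas RBL1 (p107) and RBL2 (p130) bind E2F4 and E2F5 and, with the MuvB proteins, form the DREAM complex that silences cell cycle genes in quiescent cells. E2F7 represses without a pocket protein or a DP partner. In breast cancer the pathway is known as the one through which CDK4/6 inhibitors act.

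Promoter windows of 300 bases (250 before to 50 after the start) were taken from RefSeq on GRCh38.p14 and matched by symbol. A window at a main start was found for 8 of the 10 members. The RB1 window belonged to a short internal transcript and was not used, and no window was held for E2F5. The windows of RBL2 and E2F1 are shown because these were the members whose groups did not overlap. Separate groups were common, at 36.9% of all tested genes, and E2F1 was too low to be tested. Capitals mark 2 kinds of match on either strand. E2F words were TTTCCCGC, TTTCCCGG, TTTCGCGC, TTTCGCGG, TTTGCCGC, TTTGCCGG, TTTGGCGC and TTTGGCGG, and the CHR word (the cell cycle homology element, which MuvB binds) was TTTGAA. No word of one kind contains a word of the other. The RBL2 window, chr16:53434221-53434520 on the plus strand, and the E2F1 window, chr20:33686336-33686635 on the minus strand, read 5′ to 3′ as follows.
RBL2: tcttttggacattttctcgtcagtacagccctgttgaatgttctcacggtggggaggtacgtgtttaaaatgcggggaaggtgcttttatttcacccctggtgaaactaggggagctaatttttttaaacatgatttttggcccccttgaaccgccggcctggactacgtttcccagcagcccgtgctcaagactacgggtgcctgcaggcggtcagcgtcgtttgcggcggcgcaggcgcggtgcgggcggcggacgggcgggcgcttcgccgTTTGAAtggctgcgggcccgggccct
E2F1: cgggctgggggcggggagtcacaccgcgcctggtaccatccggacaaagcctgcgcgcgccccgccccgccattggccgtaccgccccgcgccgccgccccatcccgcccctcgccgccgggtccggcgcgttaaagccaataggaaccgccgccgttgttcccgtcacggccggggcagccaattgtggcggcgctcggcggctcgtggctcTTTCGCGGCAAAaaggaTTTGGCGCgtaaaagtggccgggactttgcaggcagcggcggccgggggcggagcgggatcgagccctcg
The RBL2 window held a CHR word at base 275 of the window, in the transcribed part after the start, and no E2F word. A further RBL2 window, at chr16:53435369-53435668, held neither. The E2F1 window held 3 E2F words, at bases 214, 218 and 231, of which the first pair overlap and so share 1 run of capitals.

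For each other member with an E2F word, 1 word is shown with its flanks, 30 bases in all, and only that word is in capitals. RBL1, E2F2 and E2F3 held 2 words each, the ones not shown at bases 225, 194 and 198, and TFDP1 held 1. The other RBL1 word, TTTCGCGC, lies in lower case within the stretch shown. Each stretch was picked for holding an E2F word, so their likeness follows from that choice. The windows lie at chr20:37095948-37096247 (RBL1, minus strand), chr1:23531184-23531483 (E2F2, minus strand), chr6:20401629-20401928 (E2F3, plus strand) and chr13:113584503-113584802 (TFDP1, plus strand).
RBL1, base 235: ttttcgcgcgcTTTGGCGCaggtggttgtg
E2F2, base 209: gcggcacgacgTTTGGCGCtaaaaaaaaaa
E2F3, base 212: ggaaatccgagTTTCGCGGgaggaccttgg
TFDP1, base 131: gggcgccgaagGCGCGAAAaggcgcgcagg
E2F1, E2F2 and RBL1 carried the same word, TTTGGCGC. TFDP1 carried its word on the opposite strand, where it reads TTTCGCGC. In all, 5 of the 8 members had an E2F word (E2F1, E2F2, E2F3, RBL1 and TFDP1), against 7.43% of 27305 genes with a window, and 2 of 8 had a CHR word (E2F3 and RBL2), against 18.2%. The words were chosen after the windows were read, so nothing is read from these shares. A match describes the letters of the window and does not show that a factor binds there.

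The tables give FPKM, fragments scaled to transcript length and to library size. Values called scaled FPKM below were divided by a library factor between 0.990 and 1.02, and the marker values are FPKM as deposited. Summed FPKM ran from 1189056 to 1473540 per library. The step that 1 fragment makes in low FPKM values put the depth at roughly 2500000 and 2400000 fragments for the vehicle libraries and 4600000 and 3400000 for the A7 libraries, which were the deeper ones. The 9 luminal epithelial markers, among them KRT18, EPCAM and ESR1, were above 0 in all libraries. They summed to between 77067 and 81987 FPKM in the vehicle libraries and to between 35962 and 36554 in the A7 libraries, nearly all of it from TFF1. The lower sum is thus mostly that of TFF1 and not of the markers as a set. ESR1, GATA3, FOXA1 and CDH1 were higher in both A7 libraries than in either vehicle library. TFF1 was lower in both, and KRT8, KRT19 and EPCAM overlapped. KRT18 was lower in both only as deposited, by a narrow gap (239 in vehicle replicate 2 against 237 in A7 replicate 1). Division by the library factors closes this gap. Of 3 basal markers KRT5 and KRT14 were at 0 and TP63 gave 0.549 to 1.48 FPKM. Of 5 leukocyte markers PTPRC, CD3E and CD14 were at 0, and LYZ and CD79A summed to at most 1.85. Of 3 endothelial markers CDH5 was at 0, and PECAM1 and VWF summed to at most 0.0974. The 5 fibroblast markers summed to 0.417 and 0.427 FPKM in the vehicle libraries and to 10.9 and 0.982 in the A7 libraries, of which DCN alone gave 8.31 in A7 replicate 1, and their part in the results was not tested. In bulk RNA, fewer cells of a type and less RNA per cell cannot be told apart.

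RBL2 was the pocket protein gene with separate groups, higher with A7. It stood at 3.10 and 3.60 scaled FPKM in the vehicle libraries and at 7.48 and 7.01 in the A7 libraries. The A7 libraries were thus both above both vehicle libraries, and the gap between the groups was wider than the distance between replicates of either. The means were 3.35 ± 0.35 with vehicle and 7.24 ± 0.33 with A7 (SD, n = 2 each), 2.16-fold higher with A7. The difference, taken here and below as A7 minus vehicle on log2(scaled FPKM + 1), was 0.92 with an SE of 0.17. Estimated fragments were about 36 and 42 with vehicle and 161 and 116 with A7, which makes RBL2 one of the better covered members. Of the 8952 genes tested, 86 (0.961%) had a larger increase on this scale.

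**Figure D1:**
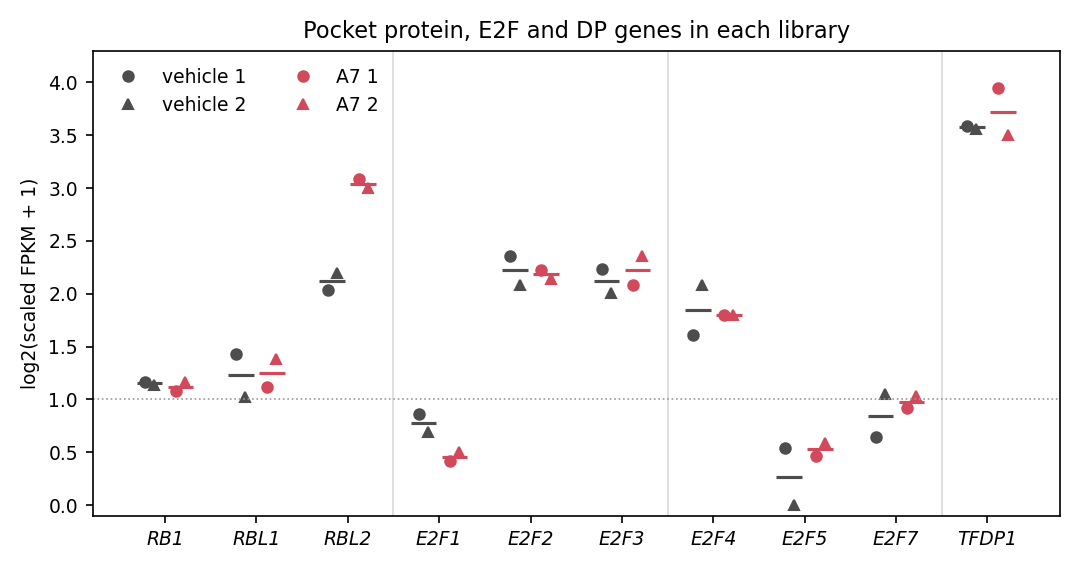
Level of each of the 10 genes in each library, as log2(scaled FPKM + 1), with circles for replicate 1, triangles for replicate 2, grey for vehicle, red for A7 and short lines for group means. The dotted line at 1 is a scaled FPKM of 1, and RBL2 is the gene whose A7 points lie well above both vehicle points.

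The last exon of RBL2 runs into that of AKTIP on the other strand in GENCODE 29, with 610 shared exon bases, 8.33% of the exon bases of RBL2. AC007342.6, also on the other strand, shares 721 exon bases (9.85%). It has no listed value, so its part in the RBL2 value was not tested. The protocol names no step that marks the strand, so fragments from the shared stretches cannot be assigned to 1 gene. AKTIP, which encodes a protein of endosomal transport, stood at 8.04 and 8.42 scaled FPKM in the vehicle libraries and at 8.99 and 9.54 with A7. Its A7 values were also above its vehicle values, by less than those of RBL2, and its part in the RBL2 value was not tested. No transcript of another gene matched RBL2 with at least 95% identity over at least 50% of its length, and the same held for the other 9 members.

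RB1 and RBL1 had similar levels in both groups. RB1, the founding tumour suppressor of the family, stood at 1.25 and 1.20 scaled FPKM in the vehicle libraries and at 1.11 and 1.24 with A7. These 4 values lie within a narrow band and the groups overlap. The difference was -0.03 (SE 0.22), from about 71 estimated fragments in all. RBL1, whose own gene is a textbook E2F target, stood at 1.70 and 1.03 under vehicle and at 1.17 and 1.60 with A7. Here replicates of each group lay farther apart than the group means, which were 1.36 ± 0.47 and 1.39 ± 0.31 (difference 0.02, SE 0.25). Signs this close to 0 turn with single settings, that of RB1 with FPKM rescaled to TPM and that of RBL1 after quantile normalization.

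RBL2 held a larger share of the pocket protein transcripts with A7. Of their summed FPKM it gave 51.3% and 61.7% under vehicle against 76.6% and 71.1% under A7. The share of RB1 was 20.6% and 20.5% with vehicle and 11.4% and 12.6% with A7, although its own level overlapped between the groups. RBL1 held 28.0% and 17.7% with vehicle and 12% and 16.3% with A7. The sum of the 3 genes was 6.05 and 5.83 scaled FPKM with vehicle and 9.76 and 9.85 with A7, whereas RB1 and RBL1 without RBL2 summed to 2.94 and 2.23 against 2.28 and 2.84. These shares contain the RBL2 values and are not further evidence of its difference. FPKM is per length of transcript, which allows levels of different genes to be set side by side.

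**Figure D2:**
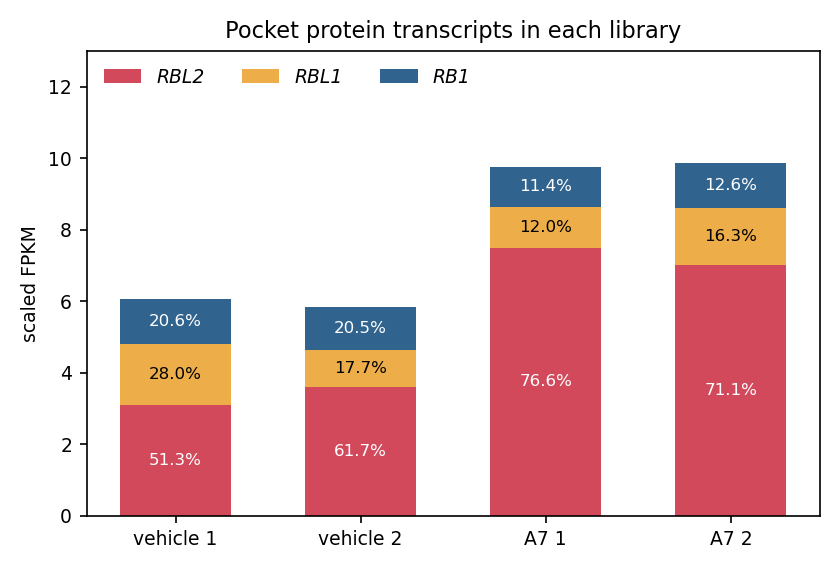
Scaled FPKM of RBL2, RBL1 and RB1 stacked for each of the 4 libraries, with the share of each gene in percent. The RBL2 part grows from 51.3% and 61.7% with vehicle to 76.6% and 71.1% with A7, while the RB1 and RBL1 parts together stay between 2.23 and 2.94 scaled FPKM.

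Among the activating factors, E2F1 was low and lower still with A7, and E2F2 and E2F3 overlapped between the groups. E2F1, the factor best known for driving S-phase entry and, in excess, apoptosis, was listed at 0.815 and 0.619 scaled FPKM in the vehicle libraries and at 0.332 and 0.418 with A7. Both A7 values were below both vehicle values, and the means of 0.717 ± 0.138 and 0.375 ± 0.061 (SD, n = 2 each) differed 1.91-fold. The value rests on about 15 estimated fragments over the 4 libraries, 8 with vehicle and 7 with A7. Its mean was under the minimum FPKM of 1 for testing, so it entered no fit, and its difference on log2(scaled FPKM + 1) was -0.32.

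E2F2 stood at 4.14 and 3.23 scaled FPKM in the vehicle libraries and at 3.67 and 3.41 with A7. The A7 values fell between the vehicle values, with a difference of -0.04 (SE 0.19) whose sign turns with FPKM rescaled to TPM. E2F3 stood at 3.71 and 3.02 under vehicle and at 3.24 and 4.14 with A7, a difference of 0.10 (SE 0.20). Together the 3 activators summed to 8.67 and 6.86 scaled FPKM in the vehicle libraries and to 7.24 and 7.97 in the A7 libraries. The A7 sums lay inside the vehicle range. E2F1 gave 9.40% and 9.02% of that sum with vehicle and 4.58% and 5.24% with A7. E2F2 and E2F3 gave the rest, so most activator transcripts in each library came from this pair. The ratio of summed pocket protein FPKM to summed activator FPKM was 0.697 and 0.849 with vehicle and 1.35 and 1.24 with A7. This ratio contains the RBL2 values and is not further evidence of their difference. RB1 and RBL1 without RBL2 overlapped between the groups, with sums of 2.94 and 2.23 scaled FPKM with vehicle and 2.28 and 2.84 with A7.

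The E2F members that act in repression, E2F4, E2F5 and E2F7, overlapped between the groups. E2F4, the main partner of RBL2 in DREAM, stood at 2.05 and 3.23 scaled FPKM in the vehicle libraries and at 2.47 and 2.49 with A7. The A7 replicates were almost equal and lay between the vehicle replicates, with a difference of -0.05 (SE 0.23) that turns to 0.11 with FPKM rescaled to TPM. E2F5, the close relative of E2F4, was listed at 0.453 and 0 under vehicle and at 0.382 and 0.503 with A7, from about 8 estimated fragments in all. In GENCODE 29 it shares 969 exon bases with C8orf59 on the other strand, which stood at 74.0 and 92.4 scaled FPKM in the vehicle libraries and at 81.2 and 77.5 with A7. E2F7, the repressor without a pocket protein, was listed at 0.560 and 1.08 under vehicle and at 0.896 and 1.05 with A7. E2F5 and E2F7 had a mean FPKM under the minimum of 1 and entered no fit, and about 65 fragments in all stood behind E2F7. The groups of both overlapped.

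TFDP1, whose product DP1 pairs with E2F1 to E2F6, was the most abundant member. It stood at 11.1 and 10.8 scaled FPKM in the vehicle libraries and at 14.4 and 10.3 with A7. The highest and the lowest value were both in the A7 group, so that the difference of 0.14 (SE 0.20) rests on A7 replicate 1 and becomes -0.077 without it. TFDP3, a relative with 86.7% identity over 63.3% of the TFDP1 transcript, was listed at 0 in the 4 libraries.

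Ordered by mean scaled FPKM over the 4 libraries, the members ran TFDP1 (11.6), RBL2 (5.30), E2F2 (3.61), E2F3 (3.53), E2F4 (2.56), RBL1 (1.37), RB1 (1.20), E2F7 (0.894), E2F1 (0.546) and E2F5 (0.335). The ranges of neighbours over the libraries were apart at 3 steps, between TFDP1 and RBL2, between E2F4 and RBL1 and between RB1 and E2F7. At the other 6 steps they overlapped, so the order within RBL2, E2F2, E2F3 and E2F4, within RBL1 and RB1, and within E2F7, E2F1 and E2F5 is not settled. With vehicle the range of RBL2 overlapped those of E2F2, E2F3 and E2F4, and with A7 it lay above all of them.

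The fit with limma, a linear model that shares the spread across genes, took in the 8952 genes whose mean FPKM reached 1, and 7 of the 10 members were among them, which gave the SE printed above. Over all genes it called 2 at an adjusted p under 0.05 (0.0223%), 1 in each direction (0.0112% each). None of the 7 tested members, RBL2 included, was among the genes called. The groups did not overlap for 1 of the 7, RBL2, beside 36.9% of all genes (18.3% higher and 18.6% lower with A7). They were apart and at least 2-fold higher for the same gene, beside 1.24% of all genes, and at least 2-fold lower for none of the 7, beside 1.26%. The mean was higher with A7 for 4 of the 7, beside 49.7% of all genes. Because RBL2 was known when the members were chosen, nothing is read from these counts.

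**Figure D3:**
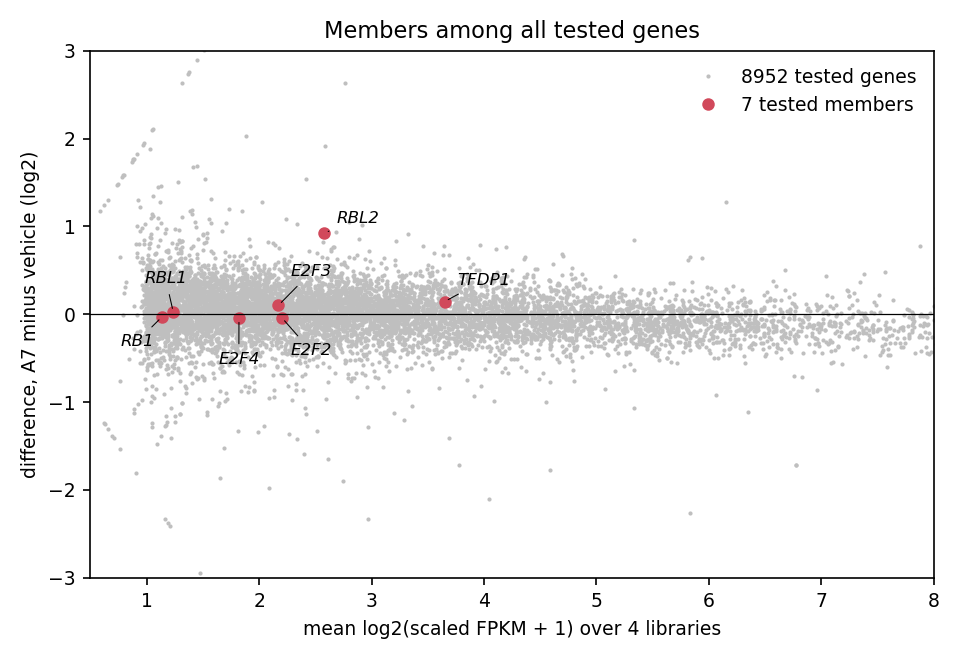
Difference between A7 and vehicle (log2, vertical) against mean log2(scaled FPKM + 1) over the 4 libraries (horizontal), with each of the 8952 tested genes in grey and the 7 tested members in red. RBL2 lies at 0.92, apart from the dense band around 0 that holds the other 6 members, and 438 genes lie outside the plotted range.

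The 5 tested genes nearest to RBL2 in their pattern over the 4 libraries were EFNA4, BAD, UPK3BL, RFNG and MGAT1, at Euclidean distances of 0.055 to 0.192 between centred log2 values. EFNA4, which encodes an ephrin ligand, stood at 1.02 and 1.27 scaled FPKM in the vehicle libraries and at 3.05 and 2.77 with A7. BAD, a death-promoting BCL2 relative, stood at 0.861 and 0.875 against 2.34 and 2.31. The distance rests on 4 libraries, and genes were picked for likeness from the whole table, so this is a description only.

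Genes beside the members in the pathway were described in 8 lists with 112 different symbols, some in more than 1 list, of which 98 reached the minimum for testing. None of the 98 passed the limma test over all genes, and at an unadjusted p under 0.05 there were 3 (CDKN2D, GINS2 and CCNB1), beside 5.76% of all tested genes, a larger share than that of the lists. The median difference over all tested genes was -0.0019. Of the 3 tested family members outside the set, 2 were higher on average with A7 and 1 lower (median 0.05), and the groups were apart for E2F8 only. E2F8, a repressor like E2F7, stood at 1.99 and 2.52 scaled FPKM in the vehicle libraries and at 2.72 and 2.70 with A7 (limma adjusted p = 0.872), and E2F6, which represses through polycomb proteins, at 5.66 and 7.16 against 6.53 and 4.50 (limma adjusted p = 0.887).

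Of the 7 tested genes of the MuvB core and its later partners, 2 were higher on average with A7 and 5 lower (median -0.05). LIN9, a MuvB scaffold subunit, stood at 3.05 and 2.30 scaled FPKM in the vehicle libraries and at 1.60 and 1.99 with A7 (limma adjusted p = 0.806). LIN52, the subunit whose phosphorylation lets RBL2 join DREAM, stood at 12.5 and 17.7 against 11.1 and 12.3 (limma adjusted p = 0.806). Both genes had lower values in each A7 library than in each vehicle library, as did 18.6% of all tested genes, and neither passed. The difference of LIN9, -0.39, becomes -0.24 without vehicle replicate 1, and that of LIN52, -0.33, becomes -0.089 without vehicle replicate 2.

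The kinases that phosphorylate pocket proteins and their inhibitors had medians of opposite sign. Of 9 tested cyclins and kinases 2 were higher on average with A7 and 7 lower (median -0.17). CDK2, the kinase of cyclins E and A, stood at 11.6 and 9.79 scaled FPKM in the vehicle libraries and at 9.38 and 5.94 with A7, whereas CCNA2, cyclin A, stood at 6.90 and 6.08 against 8.48 and 9.07 (limma adjusted p = 0.806 for each). The difference of CDK2, -0.46, becomes -0.16 without A7 replicate 2 and -0.75 without A7 replicate 1. All 4 tested CDK inhibitors were higher on average with A7 (median 0.40), and for 3 of them the groups were apart, beside 49.7% and 18.3% of all tested genes. The other 3 of the 7 listed were under the minimum. CDKN2D, an inhibitor of CDK4 and CDK6, stood at 3.21 and 3.28 under vehicle and at 7.91 and 4.45 with A7, so its A7 replicates were far apart. Its difference of 0.71 (limma adjusted p = 0.806) becomes 0.36 without A7 replicate 1 and 1.07 without A7 replicate 2. CDKN1B, which encodes the inhibitor p27, stood at 2.63 and 2.67 against 4.55 and 3.56 (limma adjusted p = 0.806). CDKN2A was listed at 0 in all 4 libraries. With 4 genes, none past the threshold, the list is a description, and the median of the kinases turns to 0.041 with FPKM rescaled to TPM, which moves the median of all genes to 0.17.

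Among the 13 tested corepressors that pocket proteins recruit, 11 were higher on average with A7 and 2 lower (median 0.14). Differences lay between -0.15 and 0.33. A higher mean with A7 was seen for 49.7% of all tested genes. The groups were apart for 6 of the higher genes and 0 of the lower, beside 18.3% higher and 18.6% lower over all tested genes. The median becomes 0.25 without A7 replicate 2 and 0.34 with FPKM rescaled to TPM, which moves that of all genes to 0.17. KDM5A, a histone demethylase first found as an RB1-binding protein, stood at 1.16 and 1.38 scaled FPKM in the vehicle libraries and at 1.83 and 1.85 with A7. SIN3A, the corepressor scaffold, stood at 4.74 and 4.01 against 5.56 and 5.16. Of the 13 genes that set the level, assembly or dephosphorylation of pocket proteins, 6 were higher and 7 lower (median -0.06). CKS1B, a cofactor of the SKP2 ubiquitin ligase, stood at 751 and 944 under vehicle and at 680 and 681 with A7, and PPP2R1A, a scaffold subunit of phosphatase 2A, at 7.86 and 6.34 against 5.47 and 5.32. The limma adjusted p of these 4 genes lay between 0.806 and 0.823. Without vehicle replicate 2 the difference of SIN3A goes from 0.24 to 0.15 and that of CKS1B from -0.31 to -0.14, and without vehicle replicate 1 that of PPP2R1A goes from -0.33 to -0.20.

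The target genes of the pathway showed small differences in both directions. Of 29 tested G1/S targets of E2F, 12 were higher on average with A7 and 17 lower (median -0.09). The groups were apart for 5 of the higher and 9 of the lower genes of the 29, beside 18.3% higher and 18.6% lower over all tested genes. GINS2, a subunit of the replicative helicase, stood at 155 and 171 scaled FPKM in the vehicle libraries and at 104 and 119 with A7 (difference -0.55, SE 0.14, limma adjusted p = 0.773). Of 29 tested G2/M targets of DREAM and MYB-MuvB, 11 were higher and 18 lower, with a median of -0.07. For 3 of the higher and 9 of the lower genes the groups were apart, beside those same shares of 18.3% and 18.6%. CCNB1, the mitotic cyclin B, stood at 131 and 167 against 104 and 115 (difference -0.44, SE 0.16), and NEK2, a centrosomal kinase, at 2.93 and 1.92 against 3.49 and 4.12 (difference 0.50, SE 0.23), both with a limma adjusted p of 0.806. Without vehicle replicate 2 these become -0.26 and 0.29, and CCNB1 becomes -0.21 with FPKM rescaled to TPM. The medians of both lists turn positive with FPKM rescaled to TPM, at 0.073 and 0.14, under the shift of 0.17 for all genes.

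**Figure D4:**
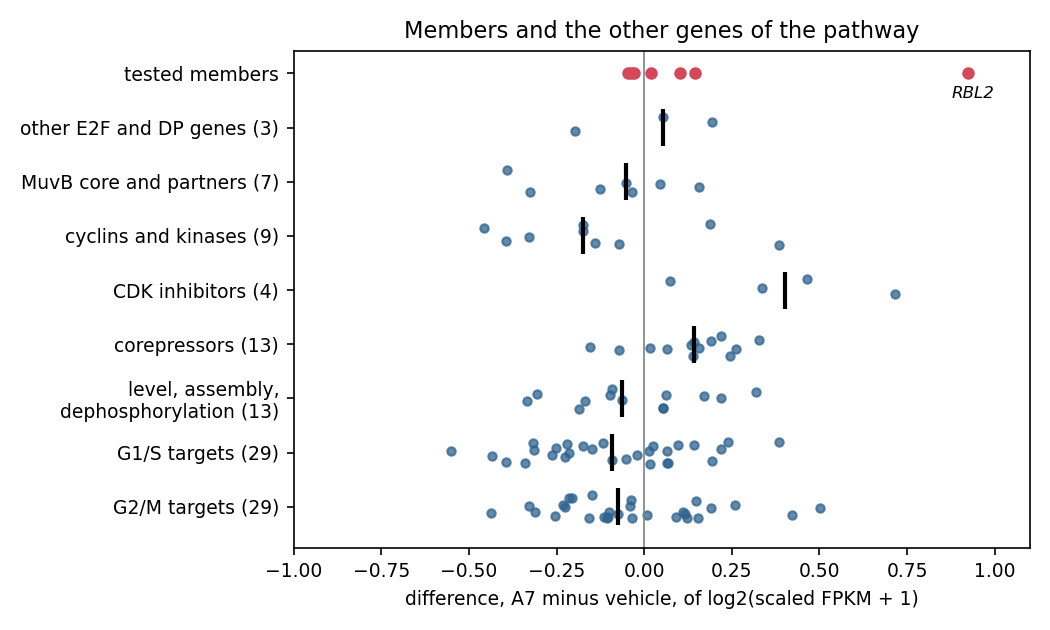
Difference between A7 and vehicle of each tested gene (points, on log2(scaled FPKM + 1)) in the member set and in each of the 8 pathway lists, with the number tested in brackets and the list median as a black bar. RBL2 at 0.92 lies beyond every gene of the lists, whose differences run from -0.55 to 0.71.

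Promoter words were frequent in both target lists, while genes with and without a word had almost equal medians. An E2F word was found for 17 of 26 G1/S targets with a window (65.4%), beside 7.43% of all genes with a window and 13.5% of the tested ones. A CHR word was found for 16 of 23 G2/M targets (69.6%), beside 18.2% and 14%. The lists hold targets of the factors that bind these words, and the words were chosen after the windows were read. Nothing is therefore read from these shares. The median difference between A7 and vehicle was -0.0067 over the 873 tested genes with an E2F word and -0.0019 over the 5593 without. It was -0.0013 over the 905 tested genes with a CHR word and -0.0033 over the 5561 without. Only 6466 of the 8952 tested genes had a window under the same symbol.

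Across the 12 alternative settings, RBL2 stayed between 0.84 and 1.11 and E2F1 between -0.91 and -0.21, and neither changed sign. Both had separate groups, so leaving out a library or changing the pseudocount could hardly turn their sign. The filter, the trend and the replicate block leave the difference of a member unchanged. The kept signs therefore restate the separate groups and are not further evidence. Each of the other 8 members changed sign in 1 to 3 of the 12. RBL2 was lowest without vehicle replicate 1 and highest with a pseudocount of 0.01, and with FPKM rescaled to TPM it was 1.06, or 0.88 relative to the shift of all genes. The extremes of E2F1 came from the pseudocount of 0.01 and from FPKM rescaled to TPM. E2F5, listed at 0 in 1 library, reached 2.72 with the pseudocount of 0.01.

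**Figure D5:**
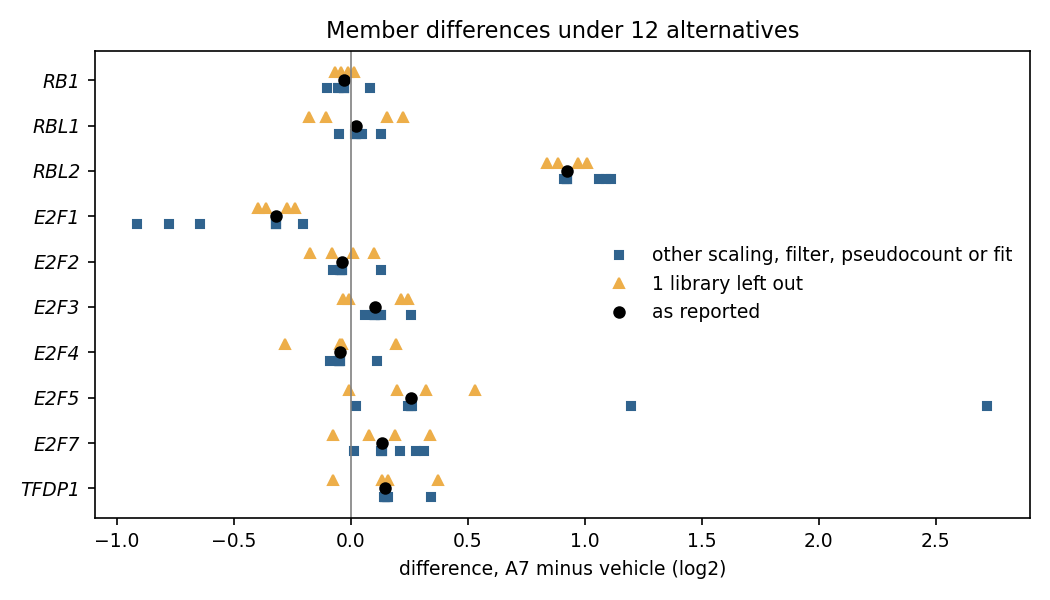
Difference between A7 and vehicle (log2) of each member as reported (black circles), with 1 library left out (yellow triangles) and under other scalings, filters, pseudocounts or fits (blue squares). RBL2 stays between 0.84 and 1.11 and E2F1 below 0, whereas the points of the other 8 members lie on both sides of 0.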

How the data were processed

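The authors deposited 1 table of gene symbols and FPKM for each library, per the file headers. The submitters' processing notes name Cufflinks 2.2.1, TopHat without a version, CASAVA 1.8.2 and the build GRCh37, and state neither role nor order. The annotation is not given in the sources used here. Of 23619 lines, 14 whose symbol was a whole number named no gene and were left out (at most 0.00539% of summed FPKM).

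FPKM were divided by 1 factor per library, the median over genes of the ratio to the gene's geometric mean. The 8952 genes whose mean FPKM reached 1 were fitted with limma 3.58.1 in R 4.3.3 (lmFit, eBayes with trend). The fit was on log2(scaled FPKM + 1), A7 minus vehicle, two-sided, with Benjamini-Hochberg adjustment over all of them. It was also run on simulated data, whose spread depended on level alone and not on the gene. How well the fit recovers changes in these libraries was not tested. Separate cultures are not stated in the labels, so p-values measure only the spread between libraries, which may be technical. Fold changes on this scale understate low genes. An FPKM of 0 is printed as listed. Estimated fragments multiply FPKM by the longest coding transcript less 150 bases (GENCODE 29) and by the estimated depth, and are rough. Overlapping genes came from the GENCODE 29 annotation and copies from blastn 2.17.0 against its transcripts. Members and lists were chosen with earlier results of these data known. All 10 members are named, and in each list the 2 tested genes with the smallest unadjusted p. The promoter words were chosen after the windows were read. The 12 alternatives covered pseudocount, filter, scaling, trend, replicate block and leaving out each library.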

Additional observations from a re-analysis of the deposited data

How the results depend on the processing

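Depth limits E2F5 and E2F1 most, with 8 and 15 estimated fragments in all. No gene of the 8 lists passed under any of the 12 alternatives, as in the reported fit.

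The counts over all genes, 1 higher and 1 lower, both became 0 when low values were not filtered out and with the replicate block, and 0 lower with a pseudocount of 0.1 or 0.01. They became 0 higher without the trend, and 2 lower after quantile normalization and with FPKM rescaled to TPM. Leaving out 1 library gave 0 to 9 higher and 0 to 7 lower genes, with 0 of each without A7 replicate 1, 9 higher without A7 replicate 2, and 6 and 7 lower without vehicle replicate 1 and 2. The titles number the libraries 1 and 2 in each group, but nothing says that a number marks a shared batch, and deviations of same-numbered libraries had a correlation of 0.091 across genes. The replicate block changed no other call.

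RBL2 moved to 1.09 and 1.11 with pseudocounts of 0.1 and 0.01 and to 1.06 with FPKM rescaled to TPM, and lay between 0.84 and 1.01 with 1 library left out.

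Signs turned as follows, and the cause was not tested beyond the shift of all genes to 0.17 with TPM. With FPKM rescaled to TPM, RB1 became 0.082, E2F2 0.13 and E2F4 0.11, and the list medians became 0.09 (MuvB), 0.041 (kinases), 0.13 (level and assembly), 0.073 (G1/S) and 0.14 (G2/M). After quantile normalization RBL1 became -0.050 and the level and assembly median 0.044. With 1 library left out, RB1 ran from -0.068 to 0.012, RBL1 from -0.18 to 0.22, E2F2 from -0.17 to 0.10, E2F3 from -0.035 to 0.24, E2F4 from -0.28 to 0.19, E2F5 from -0.010 to 0.53, E2F7 from -0.077 to 0.34 and TFDP1 from -0.077 to 0.37. E2F6 ran from -0.42 to 0.034, the MuvB median from -0.22 to 0.16 and the median of the other family members from -6.37e-06 to 0.12. Without a change of sign, the median of the kinases became -0.10 without vehicle replicate 2, that of the G1/S targets -0.040 without A7 replicate 2, that of the G2/M targets -0.034 without vehicle replicate 2 and that of level and assembly -1.22e-05 without vehicle replicate 2, and E2F8 became 0.073 without vehicle replicate 1. Values of single members (RBL2 apart), named list genes and list medians were sorted under the alternatives. Of these, 338 were counted as kept and 22 as moved, and 24 are the turned signs above. A member or list median was kept if its sign held and its size stayed within the spread of replicates. A named list gene was kept if its sign held and it stayed on the same side of the threshold, whatever its size. CKS1B, -0.31 as reported, is thus among the kept at -0.082 with FPKM rescaled to TPM.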
